A study of Mus musculus with 2 samples.

Results

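The nuclei described here are the myoepithelial nuclei of the lactating mouse inguinal fat pad, which holds the mammary gland. They were chosen from the RNA counts alone. A nucleus was a member if it had at least 4 of the 9 markers Trp63, Cdh3, Kcnq5, Cacnb4, Xkr4, Synpo2, Myh11, Mylk and Oxtr with 1 or more unique molecular identifiers (UMIs, each counting 1 captured RNA molecule), Trp63 or Cdh3 among them. It was also allowed at most 1 UMI summed over Pdgfra, Pecam1, Ptprc, Adipoq and Abcc9, which mark fibroblasts, endothelium, leukocytes, adipocytes and pericytes. Of 20854 nuclei that passed quality filters, 1834 met this rule, which is 8.79% (95% exact binomial interval 8.41% to 9.19%), and 19020 did not.

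The study addressed the requirement for oxytocin in milk fat production. Nuclei of 8 lactating dams were pooled into 1 single-nucleus RNA library. A matching library held the hashtags, DNA tags that mark the animal of a nucleus. There were 4 animals with Oxtr, the oxytocin receptor gene, deleted in adipocytes (OxtrΔAd, called KO here after the hashtag names) and 4 animals with the floxed, undeleted Oxtr gene (Oxtr flox, called flox here). The hashtags of the second group are named WT, and they were taken as the flox group because it is the only other genotype in the labels. KO and flox below stand for the animals so labelled. No source used here names the Cre line behind the deletion. All dams were bred at 8 weeks of age and the inguinal white adipose tissue was taken on postnatal day 11 of the pups, without its lymph nodes, and flash frozen. By the labels, 7 dams nursed 5 pups and 1 dam nursed 3 pups, and no litter is tied to an animal. Some of the nuclei preparations were washed against free RNA, and the labels do not say which.

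Myoepithelial cells form the outer, basal layer of the mammary alveoli and ducts, between the secretory luminal cells and the basement membrane. They are epithelial cells that carry basal keratins and the transcription factor p63, together with the actin and myosin genes of smooth muscle. During nursing, oxytocin from the posterior pituitary binds its Gq-coupled receptor on these cells, phospholipase C and calcium release follow, myosin light chain kinase is activated, and the contraction ejects milk.

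Because many smooth muscle genes carry CArG boxes, the sites of serum response factor, the promoters of the contractile genes were searched for exact matches to this motif. The windows came from RefSeq on GRCm38.p6, a different build from the GRCm39 of the deposited files, and ran from 250 bases before to 50 bases after each annotated start. The box reads alike on both strands, so each match covers both. Of 20 contractile genes listed, 16 had a promoter in the table, and 3 of these 16 (18.8%) held a box, against 488 of 27025 genes in the table (1.81%). The 3 were Ldb3, Myl6 and Myl9. Ldb3 had a lower level in members than in all other nuclei, as given below, and another Myl6 promoter in the table held no box. Myh11, Tagln and Actg2 were among the contractile genes without a promoter in the table. No box was found in the 5 rule markers that had a promoter in the table, in the 9 such basal genes, or in the 16 such genes among the 25 with the highest ratio of member to other levels. The myosin light chain promoters are shown with the box in capitals, and the promoter of Oxtr, which held no exact match in this window, stands beside them. Myl9 lay at chr2:156775214-156775513 on the plus strand with its box starting at base -161 from the start, Myl6 at chr10:128492960-128493259 on the minus strand with its box at -50, and Oxtr at chr6:112489776-112490075 on the minus strand.
Myl9: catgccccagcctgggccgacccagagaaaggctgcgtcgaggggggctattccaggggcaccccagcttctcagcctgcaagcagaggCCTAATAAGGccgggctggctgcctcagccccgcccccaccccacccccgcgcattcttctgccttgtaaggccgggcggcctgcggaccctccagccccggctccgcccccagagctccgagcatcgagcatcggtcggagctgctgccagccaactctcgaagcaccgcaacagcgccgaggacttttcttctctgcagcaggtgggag
Myl6: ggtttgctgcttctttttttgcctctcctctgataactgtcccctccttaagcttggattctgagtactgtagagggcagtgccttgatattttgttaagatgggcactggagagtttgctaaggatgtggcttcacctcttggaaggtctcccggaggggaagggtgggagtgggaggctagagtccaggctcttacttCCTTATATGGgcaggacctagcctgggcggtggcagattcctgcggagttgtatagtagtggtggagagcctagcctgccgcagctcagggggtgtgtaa
Oxtr: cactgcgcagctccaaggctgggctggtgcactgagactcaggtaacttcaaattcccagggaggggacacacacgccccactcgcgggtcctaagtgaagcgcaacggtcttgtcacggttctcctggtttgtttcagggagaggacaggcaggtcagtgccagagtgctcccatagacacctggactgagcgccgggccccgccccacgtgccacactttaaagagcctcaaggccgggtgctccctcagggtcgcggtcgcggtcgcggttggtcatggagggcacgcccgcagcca

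Before any result, the depth of the nuclei has to be given, since it separated the members into unlike groups. The members had a median of 2757 UMIs and 1470 genes, and all other nuclei 4528.5 UMIs and 1871 genes. Only 824 members (44.9%) carried the hashtag of exactly 1 animal, 803 (43.8%) carried no called hashtag and 202 (11.0%) carried more than 1, against 64.0%, 25.1% and 9.52% of the other nuclei. Comparisons of genotypes therefore rest on 80 to 128 members per animal. Ordered by UMIs, the 611 shallowest, 611 middle and 612 deepest members had medians of 1882, 2754 and 6072 UMIs. The contractile gene Acta2 had 1162, 1302 and 635 counts per 1000000 UMIs (CPM) in these 3 groups, and Oxtr had 305, 323 and 126 CPM. Several genes of the secretory luminal cells ran the other way, but milk protein genes did not. Acaca, the rate-limiting enzyme of fatty acid synthesis, had 619, 619 and 4253 CPM, Xdh, which is needed for milk fat globule release, had 271, 304 and 2831 CPM, and Plpp4 had 7.16, 11.1 and 140.4 CPM. Milk protein genes took 14.7%, 11.4% and 11.3% of UMIs in the 3 groups, and Csn2, beta-casein, had 42137, 32486 and 32170 CPM. Members with more than 1 hashtag had 4758 CPM of Acaca and 447 CPM of Acta2, and members with no hashtag had 786 and 1271 CPM. As a group, the 612 deepest members thus held both basal and secretory transcripts. Genotype results below are also given without them where the genes could be tested there.

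**Figure D1:**
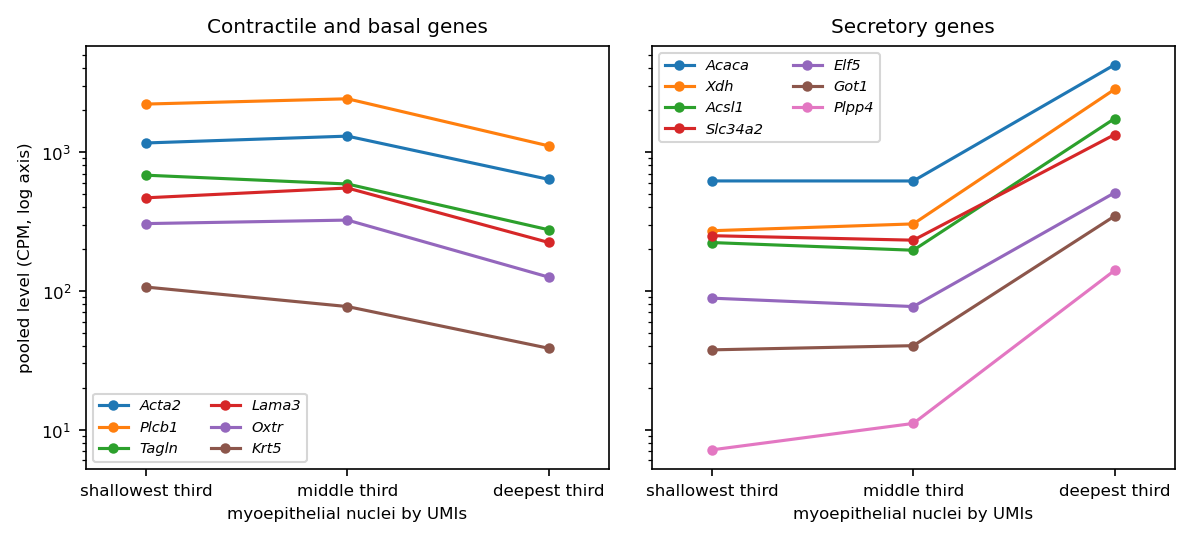
Pooled levels in CPM (log axis) of contractile and basal genes (left) and of secretory genes with Got1 (right) in the 611 shallowest, 611 middle and 612 deepest myoepithelial nuclei. Each line is a gene. Acta2 had 635 CPM and Acaca 4253 CPM in the deepest nuclei, against 1162 and 619 CPM in the shallowest.

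The label was checked with markers outside the rule, and basal and smooth muscle genes marked the members. The basal keratins Krt5, Krt14 and Krt17 had pooled levels of 57.2, 44.7 and 67.6 CPM in myoepithelial nuclei and of 1.42, 1.90 and 1.495 CPM in all other nuclei. Krt5 had 67.2, 38.5, 51.4 and 57.1 CPM in the KO animals and 38.0, 53.3, 47.7 and 100.5 CPM in the flox animals. In the other nuclei of the same animals Krt5 stayed between 0.342 and 1.67 CPM, so the classes did not overlap in any animal. The 11 listed pericyte and vascular smooth muscle markers summed to 202 CPM in members and 523 CPM in the others, with 78.9 to 378 CPM in members of the KO animals and 147 to 259 CPM in members of the flox animals. Of the 6 measured outside the rule, 1 had members above the others in every animal and 0 had them below, and their median log2 ratio was -0.03. Over all measured genes outside the rule, 12.9% had members above and 2.95% had them below. The listed gene with members above was Gucy1a1, a subunit of the nitric oxide receptor guanylate cyclase, with 55.1 CPM in members and 8.76 CPM in the others. Rgs5 had 1.58 CPM in members and 424 CPM in 95 pericyte-type nuclei that passed the same quality filters, and Notch3 had 23.5 and 561 CPM. The pericyte-type nuclei were chosen on markers that include Rgs5 and Notch3, so high levels of both there follow from that choice. The 9 adipocyte markers summed to 1252 CPM in members and 2824 CPM in the others, and Cidec, a lipid droplet protein, had 3.29 CPM in members and 860.3 CPM in 498 adipocyte-type nuclei. Cidec is likewise among the markers that chose the adipocyte-type nuclei. The part of pericyte and adipocyte transcripts in the members' levels was not tested.

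The values of the nuclei at the edge of the rule are given as description. The 71 members with exactly 4 markers had 414 CPM of Acta2 and 70.2 CPM of Krt5, while the 36 nuclei with exactly 3 markers, just outside, had 94.3 and 42.9 CPM. The 134 members with 1 excluding UMI had 603 CPM of Acta2, and the 38 nuclei kept out by 2 excluding UMIs had 443 CPM. A further 260 nuclei had 4 or more markers but neither Trp63 nor Cdh3, with 434 CPM of Acta2 and 44.4 CPM of Krt5. Of the members, 297 had all 9 markers.

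Each marker was then examined in nuclei chosen without it, by 4 or more of the other 8. Kcnq5, a voltage-gated potassium channel, had a UMI in 97.5% of 1773 nuclei so chosen (95% exact interval 96.6% to 98.1%) and in 7.69% of the rest. Myh11, the smooth muscle myosin heavy chain, had a UMI in 92.6% of 1792 nuclei and in 5.72% of the rest. The nuclei chosen without Myh11 held 82.9% of all its UMIs in the library with 6.94% of all UMIs. Cdh3, the adhesion protein P-cadherin, was found in 65.8% and 2.58%. Oxtr had the lowest share of the 9 markers. Intervals here cover counting error only.

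Oxtr had a UMI in 49.4% of the 1824 nuclei chosen without it (95% exact interval 47.1% to 51.7%) and in 3.33% of the rest, although the rest were deeper, with medians of 2765 and 4527.5 UMIs. After every nucleus was thinned to 1000 UMIs the shares were 21.2% and 0.951%. The level was 195 CPM in these nuclei and 7.63 CPM in the rest, and these nuclei held 66.0% of all Oxtr UMIs with 7.06% of all UMIs. Among the other nuclei, the 95 pericyte-type nuclei, also contractile cells, held 1 Oxtr UMI (2.41 CPM), and the 498 adipocyte-type nuclei held 48 (10.8 CPM).

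**Figure D2:**
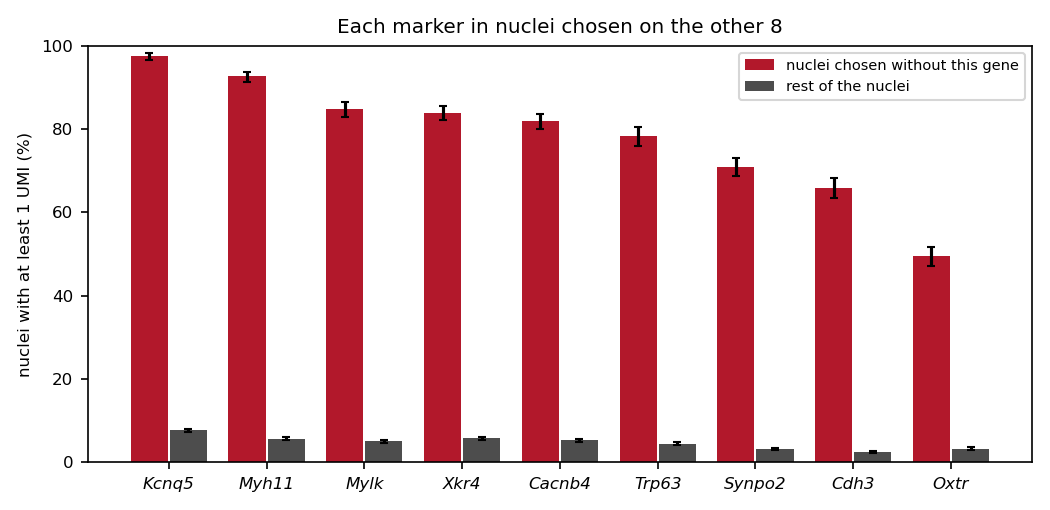
Share of nuclei with at least 1 UMI of each rule marker (%), in nuclei chosen on the other 8 markers and in the rest of the nuclei. Bars show the share and error bars the 95% exact binomial interval, and the shares of the chosen nuclei run from 97.5% for Kcnq5 to 49.4% for Oxtr.

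Contractile genes marked the members almost throughout. Of the 16 contractile genes outside the rule that were measured, 15 had members above all other nuclei, the lowest of the 8 animals in members exceeding the highest in the others. Over all 14458 measured genes outside the rule this held for 1870, or 12.9%, and the reverse held for 427, or 2.95%. The median log2 ratio of members to others was 4.81 for the list and 0.06 for all genes. The rule used this contrast, so these counts describe the members and no test is given. Acta2, smooth muscle actin, had 728, 1047, 573 and 919 CPM in members of the KO animals and 661, 880, 847 and 1294 CPM in members of the flox animals. In the other nuclei it had 12.8 to 26.3 CPM over the 8 animals. Tagln, an actin-binding protein, had pooled levels of 405 CPM in members and 13.2 CPM in the others, and Cnn1, calponin, had 229 and 4.97 CPM. Myl9, the regulatory light chain that myosin light chain kinase phosphorylates, had 125 and 3.56 CPM. Pgm5, a protein of muscle adhesion plaques, had 239 and 4.41 CPM. The exception was Ldb3, a Z-disc protein of striated muscle, with 25.9 CPM in members and 46.0 CPM in the others, and Des, desmin, had 1 UMI in all members together. CPM values are not divided by gene length and are not compared between genes.

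**Figure D3:**
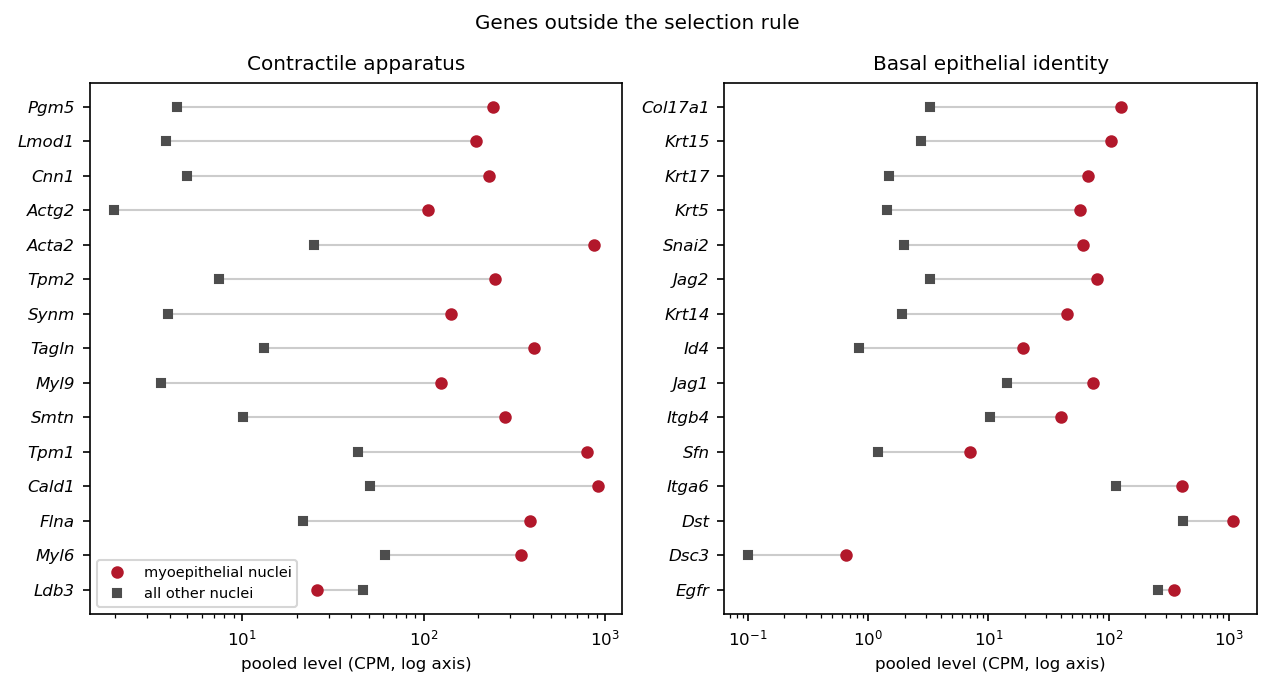
Pooled levels in CPM (log axis) of contractile genes (left) and basal identity genes (right) outside the rule, in all 1834 myoepithelial nuclei and in all 19020 other nuclei. Genes with under 3 UMIs in members and 1 gene that is not reported are left out. The grey line joins the 2 levels of a gene. In the contractile panel Ldb3 is lower in the myoepithelial nuclei, at 25.9 CPM against 46.0 CPM.

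All 14 measured basal identity genes outside the rule had members above the others in the same way. Krt15 had 104 CPM in members and 2.77 CPM in the others, and Snai2, a transcription factor of basal mammary cells, had 61.6 and 1.98 CPM. Col17a1, a hemidesmosome collagen, had 127 and 3.24 CPM. Egfr was closest between the classes, with 347 and 258 CPM. The desmosomal cadherins Dsc3 and Dsg3 of stratified epithelia were nearly absent, with 5 and 2 UMIs in all members.

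Members also had the structural genes of the basement membrane they rest on. Of 28 measured genes, 22 had members above the others in every animal. Lama3, the alpha chain of the laminin of hemidesmosomes, had 367, 244, 343 and 329 CPM in members of the KO animals and 282, 294, 323 and 512 CPM in members of the flox animals, and 4.16 to 6.85 CPM in the other nuclei. Its partner chain Lamb3 had 60.5 CPM in members and 6.54 CPM in the others. Col4a5 and Col4a6, collagen IV chains, had 258 and 522 CPM in members and 26.4 and 19.1 CPM in the others. The nidogens Nid1 and Nid2, which link laminin to collagen IV, were lower in members, at 14.1 and 26.0 CPM against 34.2 and 48.8 CPM, and the laminin chain Lama4 likewise, at 31.8 against 50.0 CPM.

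Downstream of the receptor, 15 of 28 measured genes of oxytocin and calcium signalling had members above the others in every animal. Plcb1, a phospholipase C of the Gq pathway, had 1566 CPM in members and 204 CPM in the others, while its relative Plcb4 had 70.3 and 116 CPM. Gnaq, the alpha subunit of Gq, was less far apart, at 541 and 417 CPM. Prkca, protein kinase C alpha, had 444 and 59.5 CPM. Ppp1r12a, the targeting subunit of myosin phosphatase, had 1064 and 189.8 CPM. Of the calcium release channels, Itpr1 had 192 and 156 CPM and Itpr2 had 103 and 134 CPM. Store-operated entry genes split, with the sensor Stim1 at 124 and 35.2 CPM and the pore Orai1 at 104 and 183 CPM.

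Among 16 measured ion channel genes outside the rule, 9 had members above the others in every animal. Kcnma1, the pore of the calcium-activated BK potassium channel, had 299 CPM in members and 13.8 CPM in the others, and its smooth muscle beta subunit Kcnmb1 had 21.4 and 0.472 CPM. Cacna1c, the L-type calcium channel, had 481 and 53.0 CPM, and its auxiliary subunit Cacna2d1 had 564 and 61.3 CPM. The mechanosensitive channel Piezo1 was lower in members, at 153 and 277 CPM.

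Receptors for other agonists that act on contractile cells were few. Of 10 measured genes outside the rule, 3 had members above the others in every animal. These were the endothelin receptor Ednra with 28.7 CPM in members and 7.83 CPM in the others, the ATP-gated channel P2rx7 with 99.9 and 36.0 CPM, and the natriuretic peptide clearance receptor Npr3 with 40.8 and 3.76 CPM. The vasopressin receptor Avpr1a and the adrenergic receptor Adra1d had no UMI in 1834 members. The muscarinic receptor Chrm3 was at 328 CPM in members and 526 CPM in the others.

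Of 19 measured signals known from basal cells, 10 had members above the others in every animal. The Notch ligands Dll1, Jag1 and Jag2 had 121, 74.5 and 79.7 CPM in members and 3.32, 14.4 and 3.29 CPM in the others. Cxcl14, a chemokine, had 239 and 11.5 CPM, and Wnt6 had 16.7 and 0.351 CPM. Vegfa was lower in members, at 161 and 283 CPM. Of 26 growth factor and hormone receptors, 12 had members above the others in every animal, among them the receptor tyrosine kinases Fgfr1 with 288 and 31.7 CPM and Igf1r with 279 and 38.8 CPM. Pgr, the progesterone receptor, had 37.0 CPM in members and 3.29 CPM in the others, and the R-spondin receptor Lgr6 had 52.8 and 1.18 CPM. Prlr, the prolactin receptor that drives milk synthesis in luminal cells, was lower in members, at 110 and 233 CPM, and Esr1, an estrogen receptor, was at 264 and 581 CPM.

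Of the transcriptional regulators, 6 of 15 measured genes had members above the others in every animal. Tead1, the DNA-binding partner of the Hippo effectors, had 315 CPM in members and 83.0 CPM in the others, and the effectors Yap1 and Wwtr1 had 158 and 137 CPM in members and 68.8 and 62.8 CPM in the others. Mrtfa, a coactivator of serum response factor, had 252 and 117 CPM. Srf itself had 5.13 and 2.64 CPM, and Myocd, the coactivator of vascular and visceral smooth muscle, had 2 UMIs in all members.

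The 25 genes with the highest ratio of member to other levels, among genes with a UMI in at least 10% of members, included Pgm5, Lmod1, Cnn1, Actg2, Acta2, Lama3, Col17a1 and Nexn of the groups above or of the sarcomere and adhesion apparatus. Non-coding transcripts were also among them. Carmn, known as a host of smooth muscle microRNAs, had 508 CPM in members and 12.1 CPM in the others. Mir205hg, the host gene of miR-205, which is abundant in basal epithelia, had 247 and 4.54 CPM. Ntrk3, the neurotrophin-3 receptor, had 828 and 23.4 CPM, and Alpl, an alkaline phosphatase, had 164 and 3.39 CPM. Among the genes lowest in members relative to the others were the adipose and stromal regulators Pparg, with 18.2 and 99.2 CPM, and Ebf1, with 89.98 and 431 CPM.

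Some genes known from other cell types had UMIs in members. Of those given here, Scn7a and Lep were higher in members than in all other nuclei. Milk protein genes made up 11.8% of member UMIs and 15.2% of the UMIs of other nuclei, and Csn2, beta-casein, had a UMI in every member. Milk protein transcripts are made by secretory cells, and their part in the members' levels was not tested. Sox10, used as a Schwann cell marker, had 319 CPM in members and 342 CPM in the others, and Scn7a, a sodium channel-like gene, had 329 and 29.3 CPM. Another Schwann marker, Cdh19, was at 9.21 CPM in members. Lep, the adipokine leptin and also among the markers that chose the adipocyte-type nuclei, had 21.2 CPM in members, 14.8 CPM in adipocyte-type nuclei and 1.19 CPM in all other nuclei. It had 11.5, 40.4, 8.11 and 16.7 CPM in members of the KO animals and 34.8, 12.7, 14.03 and 44.1 CPM in members of the flox animals, against 0.147 to 2.97 CPM in the other nuclei.

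The comparison of KO with flox animals asked what the adipocyte deletion of Oxtr left of the receptor and of gene expression in myoepithelial nuclei. Oxtr was first checked in the adipocyte-type nuclei, where the deletion was aimed. Its levels there were higher, not lower, in the animals labelled KO, though on 1 to 5 UMIs per animal. It had 15.2, 9.83, 14.3 and 9.90 CPM in the animals labelled KO, from 3 to 5 UMIs each, and 5.97, 6.45, 3.59 and 5.39 CPM in the animals labelled flox, from 1 UMI each. All 4 animals labelled KO were above all 4 labelled flox, and the share of genes so separated in these nuclei was not computed. Pooled, the levels were 12.0 CPM from 15 UMIs in KO (95% exact Poisson interval 6.71 to 19.8 CPM, covering counting error only) and 5.09 CPM from 4 UMIs in flox (1.39 to 13.02 CPM), and these intervals overlapped. All nuclei outside the rule had pooled levels of 6.99 CPM in KO and 5.53 CPM in flox, which lay within the respective intervals. The sources used here do not say which part of the gene is deleted, so UMIs from outside it cannot be told apart. Every direction between KO and flox given below rests on these labels.

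The share of myoepithelial nuclei did not separate the genotypes. Members were 6.12%, 6.55%, 6.10% and 7.04% of the tagged nuclei in the KO animals and 7.82%, 4.94%, 4.44% and 8.51% in the flox animals. The flox animals spanned the KO values on both sides, with means of 6.45 ± 0.44% in KO and 6.43 ± 2.04% in flox (SD, n = 4 each; exact two-sided permutation test, p = 1.00). The sign of this difference turned in several of the settings tried.

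Oxtr was present in members of every animal labelled KO. Since Oxtr is 1 of the markers of the rule, its level in members is given as a description, with 190.1, 209.8, 184 and 181 CPM in the KO animals and 215, 231, 222 and 235 CPM in the flox animals. It was tested in nuclei chosen on the other 8 markers, where it had 190.1, 209.5, 184 and 181 CPM in the KO animals and 212, 224, 222 and 235 CPM in the flox animals. All 4 KO values were below all 4 flox values, with means of 191 ± 12.9 and 223 ± 9.44 CPM (SD, n = 4 each; exact two-sided permutation test, p = 0.0286, the smallest this design allows, and 0.114 when adjusted over the 4 measures tested per animal). In the fit across all genes in these nuclei the log2 fold change of KO over flox was -0.25 (SE 0.14, edgeR quasi-likelihood test, adjusted p = 0.750), so Oxtr did not pass the test. In members chosen with Oxtr, 257 of the 6423 genes tested, or 4.00%, had animals that did not overlap between the genotypes. That share is of CPM divided by edgeR's normalization factors, and it was not computed in nuclei chosen without Oxtr. Without the 612 deepest members the genotypes overlapped for Oxtr, with 353, 410, 320 and 293 CPM in KO and 461, 432, 300 and 291 CPM in flox. The direction turned with hashtags called by a ratio rule, with 111 and 150.2 CPM in members of 2 KO animals and 35.1 and 70.6 CPM in members of 2 flox animals, the only animals with at least 10 members under that rule. In the other nuclei Oxtr was at 5.85, 7.19, 4.79 and 10.4 CPM in KO and 8.12, 3.85, 4.68 and 5.73 CPM in flox.

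**Figure D4:**
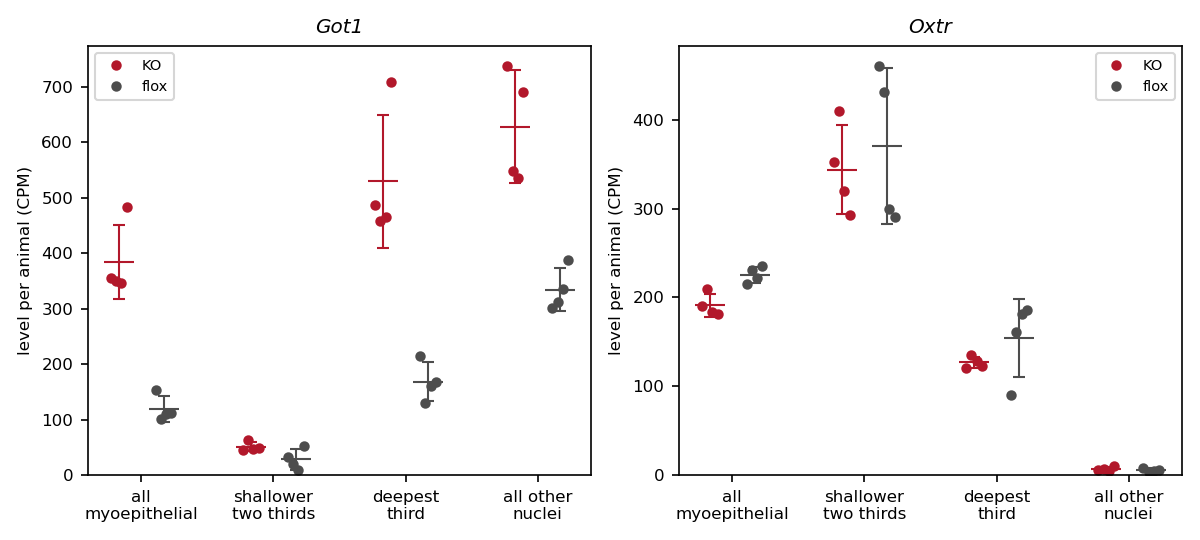
Levels of Got1 (left) and Oxtr (right) in CPM per animal, in all myoepithelial nuclei, in the 1222 shallower and the 612 deepest of them, and in all other nuclei. Points are animals, with KO left of flox, and bars give the mean ± SD of 4 animals. In all myoepithelial nuclei the genotypes do not overlap for either gene, while in the shallower nuclei they overlap for both.

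Across 6423 genes tested in members, 1 gene was called between the genotypes at an adjusted p under 0.05 (0.0156% of genes; edgeR quasi-likelihood test with Benjamini-Hochberg adjustment), and 480 (7.47%) had an unadjusted p under 0.05. DESeq2 also called 1. The gene was Got1, the cytosolic aspartate aminotransferase of the malate-aspartate shuttle, which was higher in KO. Got1 had 355, 350.3, 346 and 483 CPM in members of the KO animals and 153, 101, 109 and 113 CPM in members of the flox animals. Its log2 fold change was 1.63 (SE 0.18, edgeR adjusted p = 9.78e-05). All 4 KO values were above all 4 flox values.

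Most of the Got1 signal lay in the deepest members. Acaca, Xdh and Plpp4 were also highest there, while the milk protein share was lowest there, at 11.3%. Those members held 94.8% of the Got1 UMIs of all tagged members, with 488, 458, 466 and 708 CPM in KO and 215, 130, 161 and 167 CPM in flox. In the shallower members Got1 had 44.9, 63.6, 47.1 and 48.8 CPM in KO and 32.9, 19.6, 8.34 and 52.0 CPM in flox, from 5 to 9 UMIs per KO animal and 1 to 10 UMIs per flox animal. There the genotypes overlapped (exact two-sided permutation test, p = 0.114, n = 4 each). Among all other nuclei Got1 had 739, 549, 536 and 692 CPM in KO and 302, 312, 336 and 389 CPM in flox, without overlap, but the fit in these nuclei did not call it (log2 fold change 0.85, edgeR adjusted p = 0.232). That fit called 0 of 14691 genes, with 1671 at an unadjusted p under 0.05. How many genes lacked overlap in the other nuclei was not computed. The share of tagged members that belonged to the deepest group was 45.5%, 47.2%, 45.0% and 36.4% in KO and 34.4%, 48.8%, 43.7% and 31.6% in flox (exact p = 0.371). Acaca in all members averaged 3079 ± 604 CPM in KO and 2961 ± 1029 CPM in flox (SD, n = 4 each; exact p = 0.857).

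The next genes by p-value did not pass. Cdk6, a cyclin-dependent kinase of the G1 phase, had 62.5, 104, 78.6 and 108 scaled CPM in KO and 26.9, 36.8, 45.2 and 38.9 scaled CPM in flox (log2 fold change 1.28, SE 0.25, edgeR adjusted p = 0.0700), where scaled means divided by edgeR's normalization factors. Crebrf, a regulator of the stress-related factor CREB3, had 152, 175, 227 and 186 scaled CPM in KO and 101, 93.4, 87.4 and 111 in flox (log2 fold change 0.90, edgeR adjusted p = 0.0700). Cdh10, a cadherin, had 31.3, 10.4, 19.6 and 21.0 scaled CPM in KO and 68.2, 50.9, 69.3 and 44.1 in flox (log2 fold change -1.49, edgeR adjusted p = 0.0766). Nexn, an actin-binding protein of muscle Z-discs and among the 25 leading genes of the members, had 171, 162, 171 and 134 scaled CPM in KO and 217, 291, 280.2 and 251 in flox (log2 fold change -0.69, edgeR adjusted p = 0.128). Without the 612 deepest members Crebrf was at 0.42 and Nexn at -0.60 on the log2 scale (edgeR adjusted p = 0.910 and 0.356), and Cdk6 and Cdh10 were too low to be tested. Of the 10 genes with the smallest p, Got1, Gm10863, Crebrf, Cdk6, Slc25a33, Mideas, Bcl11a and Doc2b were higher in KO and Cdh10 and Nexn were lower.

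No contractile gene was called. Of 19 contractile genes tested, 18 had a fitted value below 0 for KO over flox. The median log2 fold change was -0.27 against -0.005 for all genes tested, of which 50.8% were below 0. The list includes the rule markers Myh11, Mylk and Synpo2, so its counts and medians rest partly on genes that chose the nuclei. Of the 19, 4 were lower at an unadjusted p under 0.05, the rule marker Mylk among them, against 3.02% of all genes tested. At the same level 1, Ldb3, was higher (log2 fold change 0.81, edgeR adjusted p = 0.599), against 4.45% of all genes tested. Tpm1, tropomyosin, had 690, 858, 584 and 761 scaled CPM in KO and 853, 962, 1075 and 1060 scaled CPM in flox (log2 fold change -0.45, SE 0.15, edgeR adjusted p = 0.437). Mylk, a marker of the rule and so given as a description, had 623, 649, 570 and 690 scaled CPM in KO. In flox it had 695, 798, 813 and 1065 scaled CPM (log2 fold change -0.41). Without the 612 deepest members 9 of 18 contractile genes were below 0, with a median log2 fold change of 0.005. Tpm1 stayed below 0 there, at -0.28 (edgeR adjusted p = 0.832), as did Smtn, Tpm2, Synm and Myl9, at -0.24, -0.25, -0.26 and -0.21. Mylk, as a description, was at -0.31 there. Acta2 and Actg2, which were at -0.18 and -0.32 in all members, were at 0.08 and 0.51. Myh11, a marker of the rule and so given as a description, then had 3813, 4023, 3964 and 4374 CPM in KO and 2770, 3485, 3835 and 3358 CPM in flox, whereas in all members it had 2638, 2531, 2176 and 2476 CPM in KO and 1685, 2713, 3019 and 3069 CPM in flox. With hashtags called by a ratio rule, 1 of 19 was below 0 over the 4 animals that had at least 10 members.

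**Figure D5:**
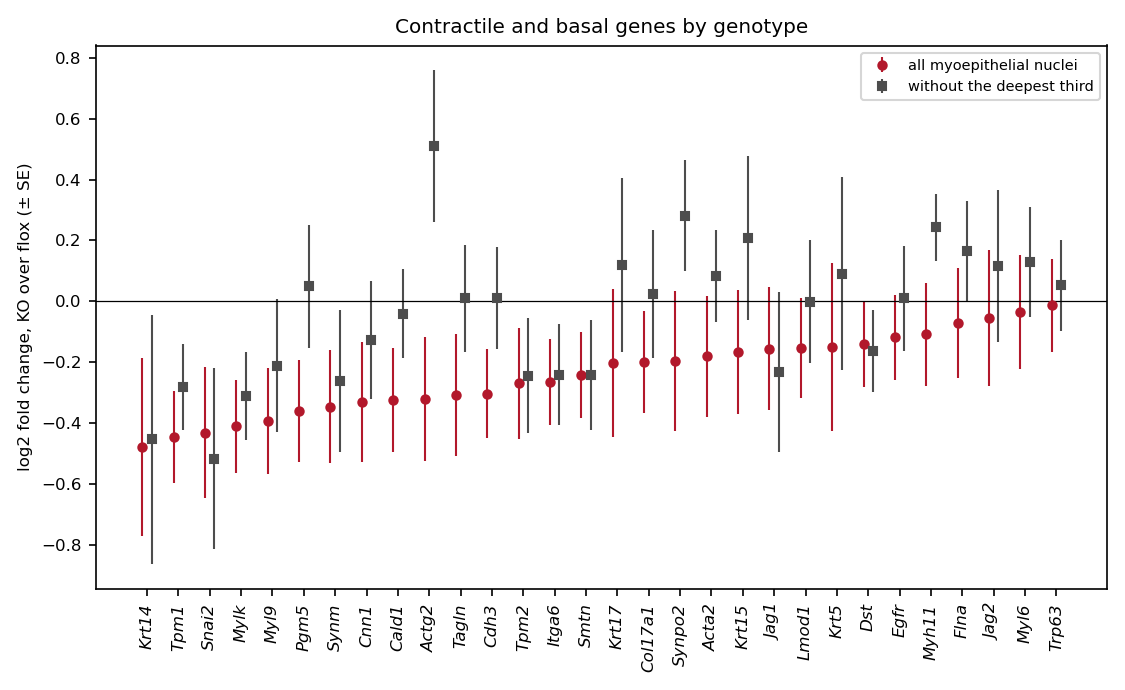
Log2 fold change of KO over flox (± SE) for contractile and basal genes tested both in all myoepithelial nuclei and without the 612 deepest, without 1 gene that is not reported. Genes run from the lowest to the highest value in all myoepithelial nuclei. Myh11, Mylk, Synpo2, Trp63 and Cdh3 are markers of the rule. Every value in all myoepithelial nuclei lies below 0, while without the deepest nuclei values lie on both sides of 0.

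The other lists gave no call. The basal list includes the rule markers Trp63 and Cdh3, the ion channel list Kcnq5 and Cacnb4, and the oxytocin list Oxtr. Counts and medians of these lists rest partly on genes that chose the nuclei. Basal identity genes were below 0 in 14 of 14 with all members (median log2 fold change -0.16) and in 5 of 13 without the deepest members (median 0.01). Of 25 basement membrane genes, 20 were below 0 (median -0.15), and 10 of 18 without the deepest members (median -0.06), and Lama1, a laminin chain, had 288, 479, 267 and 210 scaled CPM in KO and 393, 498, 506 and 459 in flox (log2 fold change -0.56, edgeR adjusted p = 0.473, and -0.35 without the deepest members). Of 26 oxytocin and calcium signalling genes, 16 were below 0 (median -0.07), and 10 of 21 without the deepest members (median 0.03). Of 12 ion channel genes, 9 were below 0 (median -0.24), and 3 of 7 without the deepest members (median 0.02), and Kcnj15, an inward rectifier, had 29.2, 35.4, 19.6 and 52.5 scaled CPM in KO and 115, 113, 66.3 and 23.3 in flox (log2 fold change -1.24, edgeR adjusted p = 0.351). Of 25 growth factor and hormone receptors, 13 were above 0, and 12 of 18 without the deepest members. Vdr, the vitamin D receptor, had 392, 385, 401 and 317 scaled CPM in KO and 303, 158, 184 and 251 in flox (log2 fold change 0.72, SE 0.18, edgeR adjusted p = 0.196), and its log2 fold change was 0.34 without the deepest members. Of 12 milk protein genes, 7 were above 0 (median 0.02), and 9 of 12 without the deepest members (median 0.05).

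The genotype difference in members was also set against that in all other nuclei of the same animals. Of 13687 genes tested, 14 (0.102%) were called, 13 lower and 1 higher in this difference (edgeR with an animal term, adjusted p under 0.05), and 1087 had an unadjusted p under 0.05. None of the 14 was called between the genotypes in the other nuclei alone. Of the 14, 12 were also tested in members alone, and none of these was called there with all members. Without the 612 deepest members Adamtsl1 was called there, lower in KO (log2 fold change -1.08, edgeR adjusted p = 0.0022). Cacna1c, the L-type calcium channel, had 432, 483, 484 and 407 CPM in members of the KO animals and 343, 482, 572 and 632 CPM in members of the flox animals. In the other nuclei it had 41.4, 38.4, 48.2 and 36.2 CPM in KO and 17.8, 14.6, 16.7 and 27.3 CPM in flox. The difference was -1.19 on the log2 scale (edgeR adjusted p = 0.0013), with members alone at -0.18 and the other nuclei alone at 1.05. Plcb1 had a difference of -1.09 (edgeR adjusted p = 0.0161), with means of 1382 and 1636 CPM in members of KO and flox animals and of 259 and 137 CPM in the other nuclei of KO and flox animals. Without the 612 deepest members the difference was -0.97 for Cacna1c (edgeR adjusted p = 0.06001) and -1.11 for Plcb1 (edgeR adjusted p = 0.0023). The number of genes called went to 0 under each of 3 other ways of calling hashtags and ranged from 1 to 77 when 1 animal was left out.

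The depth and the milk protein RNA of the members overlapped between the genotypes. The median UMIs per member were 3197, 3351, 3242.5 and 2767 in KO and 2982.5, 3426.5, 3374 and 2812 in flox (exact p = 0.971). Without the deepest members the mean of these medians was 2338 in KO and 2477 in flox (exact p = 0.114, n = 4 each). Milk protein genes took 12.2%, 11.8%, 9.32% and 12.8% of member UMIs in KO and 12.0%, 11.0%, 10.4% and 11.3% in flox (exact p = 0.714), and without the deepest members a mean of 12.2% in KO and 11.7% in flox (exact p = 0.114, n = 4 each). With 4 animals against 4, exact tests cannot give a p below 0.0286.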

How the data were processed

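The authors deposited raw UMI counts per gene and nucleus, whole numbers that are not normalized, and a second table of reads per hashtag UMI, whose lines were counted to give hashtag UMI counts. The build was GRCm39 and the tools included Cell Ranger 7.2.0 and fastp, per the submitters' processing notes, which give no settings here. Kept were 20854 of 21805 barcodes, those with 500 or more UMIs, 300 or more genes and mitochondrial UMIs under 5%.

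The members and gene lists were chosen with earlier results of these data known. Animals were called with HTODemux (Seurat 5.3.0, positive quantile 0.99) on 9 of 10 hashtags; 1 hashtag of an unknown sample had too few UMIs. Nuclei with several hashtags were left out of genotype comparisons. Scrublet's own threshold marked 1 nucleus, so removing the highest 5% of its scores was tried instead. Hashtags cannot show doublets made of 2 nuclei of 1 animal.

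Counts were summed per animal (356363 to 632026 UMIs in members) and tested with edgeR 4.0.16 (quasi-likelihood, TMM scaling, filterByExpr, adjusted p under 0.05), over all genes, on KO against flox, and for the difference from all other nuclei with animal as a term. The test was checked on simulated data. Per-animal values were compared by exact two-sided permutation tests. P-values measure the spread between these 4 animals per genotype. Named genes were the rule markers, listed genes, the 25 leading genes, the 10 smallest p and the 2 smallest p per list with at least 5 tested genes. A listed gene counted as measured with a UMI in at least 1% of members or of other nuclei. Alternatives were other marker minima, hashtag calls, scalings, filters, DESeq2 1.42.0 and leaving out each animal. Added after seeing the data were centred log ratios within barcodes, leaving out the deepest 612 members, and members with 0 excluding UMIs. Results of 3 genes are not reported here, though the genes remain in the fits and counts.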

Additional observations from a re-analysis of the deposited data

Results flagged for a closer look

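Of 76 groups of 4 animals examined for a value far from the other 3, 5 were flagged, and chance flags about 1 in 20. In members, Got1 stood apart in 1 KO animal at 533 scaled CPM and in 1 flox animal at 174 scaled CPM. Gm10863 stood apart in 1 KO animal at 373 scaled CPM. In flox animals Wwtr1 had 1 value apart at 120.5 scaled CPM and Grk5 1 value apart at 192 scaled CPM.

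The genotype difference in members differed from that in all other nuclei for 14 genes, by the test of that difference (edgeR, adjusted p under 0.05). On the log2 scale it was -1.28 for Adamtsl1, -1.19 for Cacna1c, -1.17 for Pawr, -1.09 for Plcb1, -1.09 for Slit3, -0.98 for Kirrel3, -0.95 for Aplp2, -0.91 for Ptprm, -0.91 for Sparc, -0.81 for Plxdc2 and -0.67 for Tshz2. For these 11 genes KO over flox ran from -0.76 to -0.008 in members alone and from 0.58 to 1.05 in the other nuclei alone. Without the 612 deepest members the difference was called for Adamtsl1 and Plcb1 (edgeR adjusted p = 3.3e-08 and 0.0023). It was not called for the rest, with edgeR adjusted p from 0.0514 for Pawr to 0.988 for Aplp2. Of these 11, Adamtsl1 was the furthest from 0 within members, with means of 524 CPM in KO and 863 CPM in flox. Its log2 fold change there was -0.76 and was not called (edgeR adjusted p = 0.283), and the animals overlapped. Without the 612 deepest members it was -1.08 and was called (SE 0.20, edgeR adjusted p = 0.0022). It was also called in members with all 10 hashtags (edgeR adjusted p = 0.0171) and without flox animal 4 (edgeR adjusted p = 0.0281). Cntnap3 had a difference of 3.20, from 3, 55, 13 and 29 UMIs in members of the KO animals and 5, 1, 1 and 3 UMIs in members of the flox animals, and it was at -0.12 without the 612 deepest members. Nrg3 had 71 UMIs in members, all in flox animals and 66 of them in 1 animal, so no fold is given.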

How the results depend on the processing

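The main limits are counting depth and hashtag calling. Only 80 to 128 members per animal carried 1 named hashtag, and the ratio rule for hashtags left 4 animals with at least 10 members. The only alternative without a value for Got1 was leaving out the deepest members, where it was too low to be tested.

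The count of genes called between KO and flox in members, 1 as reported, was 3 with all 10 hashtags, 2 with 3 of 9 markers, 2 without the highest Scrublet scores, 3 without the deepest members, 108 with no filter on low counts, and 0 with the hashtag ratio rule and with centred log ratios within barcodes (278 and 228 genes at an unadjusted p under 0.05, edgeR). Leaving out 1 animal gave 1 to 14, with 14 without flox animal 4, 5 without KO animal 1 and 2 without flox animal 1. With the replicate number as a block it was 2. Animals share only a number: their same-number correlations were 0.0103, 0.0385, 0.0866 and 0.0634, and not every animal correlated best with its own number. Got1 was higher in KO in all 21 alternatives that tested it and was called in 19. It was not called with the ratio rule (log2 fold change 0.61, adjusted p = 0.934) or within barcodes (1.42, adjusted p = 0.335). With the ratio rule Gm10863 was at -0.14 and Nexn at 0.77 on the log2 scale.

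The count of genes whose genotype difference in members differed from that in the other nuclei, 14 as reported, was 107 with no filter, 53 with 0 excluding UMIs, 5 without the highest Scrublet scores, 4 without the deepest members, and 0 with all 10 hashtags, the ratio rule and centred log ratios within barcodes (778, 482 and 678 at an unadjusted p under 0.05, edgeR). Leaving out 1 animal gave 1 to 77. It was 77, 4, 1 and 46 without flox animals 1 to 4 and 25, 8 and 7 without KO animals 1, 2 and 4.

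Oxtr is a marker of the rule. Its difference, KO minus flox, of -34.6 CPM was -32.4 in members chosen without it (exact p = 0.0286), and without a test -43.1 with all 10 hashtags, -20.1 within barcodes, -36.9 without the highest Scrublet scores, -27.1 without the deepest members and 77.7 with the ratio rule. The genotypes overlapped in the settings given without a test, except with the ratio rule. They did not overlap in members chosen without Oxtr, or in members with 0 excluding UMIs, where the difference was -48.1 CPM. Without 1 animal it was -40.8 to -31.2.

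The difference in the share of members was 0.02 percentage points. It was -0.15 with 5 of 9 markers, -0.94 with the ratio rule, -0.97 with all 10 hashtags, -0.34 without the highest Scrublet scores, -0.34 without the deepest members and -0.58 after thinning to 1000 UMIs, and -0.64 to 0.72 without 1 animal. The difference in median UMIs was -9.38. It was 33.1 with all 10 hashtags, -564.5 within barcodes, -5805 with the ratio rule (2 animals against 2), -139 without the deepest members, and -122 to 115 without 1 animal. The difference in milk protein share was 0.33 points, and -0.0930 with the ratio rule, -0.320 with all 10 hashtags, -0.0280 within barcodes, 0.496 without the deepest members, and -0.0889 to 1.07 without 1 animal. The cause of these changes was not tested. The count of contractile and basal genes above the other nuclei in every animal, 29 of 33, stayed at 26 to 29 in all settings.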
